A study of Mus musculus with 8 samples.

Results

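Immediate early genes are transcribed within minutes of a stimulus, by factors that the cell already holds and without new protein synthesis. The 10 examined here were *Egr1*, *Fos*, *Fosb*, *Jun*, *Junb*, *Atf3*, *Ier2*, *Dusp1*, *Nr4a1* and *Zfp36*. They were chosen from a list drawn up because *Egr1* differed by genotype in the untreated mice of these same data. Values of the genotype comparison at day 0 are therefore given as a description, with no p-value, and nothing is read from its counts. All 10 were among the 15859 genes in the deposited counts, and all 10 were among the 14371 genes tested, those with a mean normalized count above 5.

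Growth factors, cytokines, stretch and cell stress raise these genes through MAP kinases, serum response factor and the CREB family. Several members code for transcription factors, while others end the response again by removing phosphate from MAP kinases or by marking AU-rich messengers for decay, and most of the messengers are short-lived. In colon and other tissues they are also known to be raised while the tissue is taken out and processed, and the time from death to freezing of each colon is not given in the sources used here.

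Polyadenylated RNA of distal colon was sequenced in 8 males, 2 for each of 4 groups. *Hsf1* codes for heat shock factor 1 (HSF1), which induces chaperone genes under protein-damaging stress, and the *Hsf1* null mice lacked it in the whole body. WT and *Hsf1* null mice were littermates on a BALB/c x 129SvEV background, all labelled as 10 weeks old. Mice at day 0 were untreated, and mice at day 15 had received AOM-DSS, that is 10 mg/kg of the carcinogen azoxymethane (AOM) by injection and later 1.5% dextran sulfate sodium (DSS), a polymer that damages the epithelium, as drinking water for 5 days. The sample titles give day 15, although the treatment protocol in the labels ends directly after DSS. The same numbered replicates of different groups were different mice.

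The libraries of untreated mice held 9393945 and 2553348 counts (WT) and 12440257 and 2675976 counts (*Hsf1* null), and those of treated mice 11097367 and 9247665 (WT) and 7379442 and 7593259 (*Hsf1* null). In each list of values by mouse, replicate 1 comes first. Both replicate 2 libraries at day 0 were shallow, and the lowest value of *Egr1*, in that of the *Hsf1* null mice, rested on 26 counts. *Fosb* had between 28 and 89 counts in each of the 8 libraries, with the 28 in the deepest library. Levels are given as CPM, counts scaled to a common library size after adjustment by edgeR's TMM method. In untreated animals, *Hsf1* itself was at 40.5 and 36.5 CPM (WT) against 14.0 and 11.9 CPM (*Hsf1* null), and in treated animals at 50.5 and 45.9 against 13.5 and 9.09 CPM. The *Hsf1* level was lower in both *Hsf1* null mice than in both WT mice on each day, as the labels state.

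The tissue label was checked on 10 markers of colon epithelium, among them *Epcam*, *Krt8*, *Cdx2* and *Muc2*. All 10 had counts in all 8 libraries, and *Krt8*, a keratin of simple epithelia, was the most abundant of them. Their summed level at day 0 was 11369 and 16836 CPM (WT) against 21211 and 17277 CPM (*Hsf1* null), and at day 15 it was 10482 and 13835 against 24927 and 18724 CPM. The 10 contractile genes of smooth muscle, with *Acta2* the most abundant, summed at day 0 to 7650 and 10374 CPM (WT) against 7483 and 7417 CPM (*Hsf1* null), and at day 15 to 3914 and 2312 against 5547 and 6359 CPM. The libraries thus held epithelium and muscle wall in shares that differed between mice, and in such bulk RNA fewer cells of a type and less RNA per cell cannot be told apart.

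Per kilobase of exon, the highest of the 10 genes was *Zfp36*, which codes for tristetraprolin, a protein that binds AU-rich messengers and promotes their decay, with a mean over the 8 mice of 98.3 CPM per kilobase. *Ier2*, a nuclear protein of the early response, followed at 71.0 CPM per kilobase. The AP-1 subunits *Junb* and *Jun* were at 48.8 and 40.6 CPM per kilobase, and *Fos*, their partner, at 19.1. *Dusp1*, *Atf3*, *Egr1* and *Nr4a1* followed at 17.2, 15.7, 9.62 and 7.13 CPM per kilobase, and *Fosb* was lowest at 1.29. The highest mouse exceeded the lowest by 3.07-fold for *Ier2*, the smallest such range, and by 8.45-fold for *Zfp36*, the largest. The order of these means depended on the group, since in untreated WT mice *Ier2* (63.7 CPM per kilobase) was above *Zfp36* (55.4) and *Jun* (48.8) above *Junb* (39.9). Neighbours in this order, such as *Junb* and *Jun* or *Fos* and *Dusp1*, therefore lay closer to each other than the spread of either gene over the mice.

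**Figure D1:**
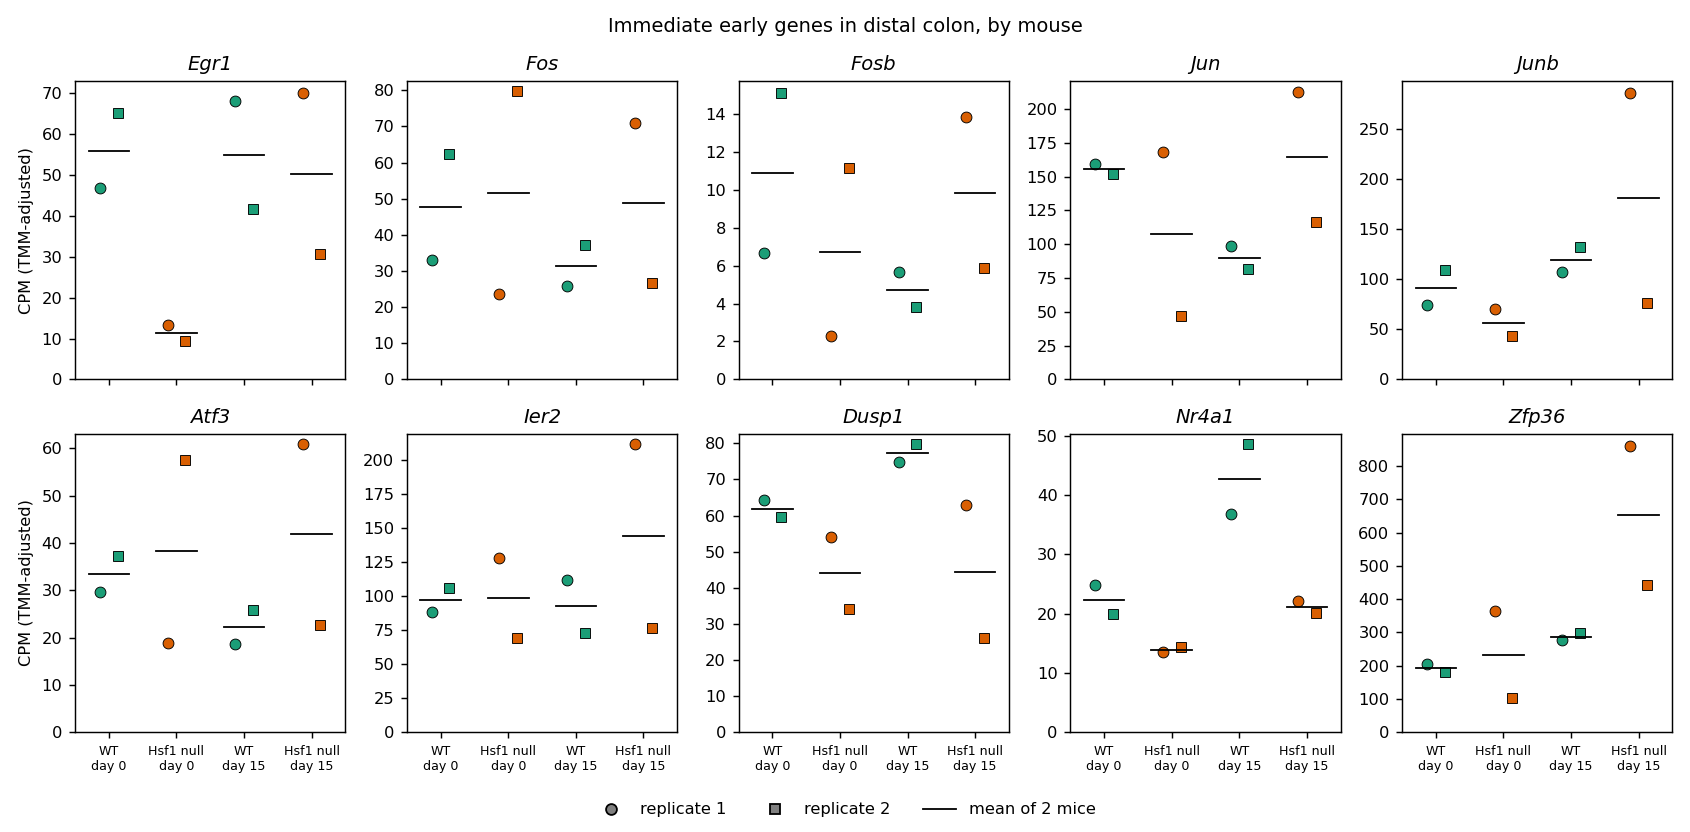
Level of each of the 10 genes in each mouse, in CPM on a linear axis that starts at 0, with replicate 1 as a circle, replicate 2 as a square and the mean of the 2 mice of a group as a line. *Egr1* was lowest in both *Hsf1* null mice at day 0 (13.4 and 9.34 CPM), and 6 of the 10 genes had their highest value in replicate 1 of *Hsf1* null mice at day 15.

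One library stood apart before any comparison between groups. At day 15, replicate 1 of the *Hsf1* null mice was above replicate 2 for 10 of 10 genes, and over 2-fold above it for 7. The median ratio of replicate 1 to replicate 2 was 2.38 over the 10 genes and 0.98 over all genes tested, of which 17.7% were over 2-fold apart in either direction. The ratio was 3.73 for *Junb*, 2.76 for *Ier2*, 2.70 for *Atf3* and 2.65 for *Fos*. It was 1.11 for *Nr4a1*, the only 1 of the 10 with a ratio under 1.5. For *Egr1*, *Jun*, *Junb*, *Atf3*, *Ier2* and *Zfp36* this mouse had the highest value of all 8.

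Other genes also set this mouse apart from replicate 2 of its group. Its 6 fibroblast markers, with *Col1a1* the most abundant of them, summed to 438 CPM against 1408 CPM in replicate 2. Its 5 endothelial markers, led by *Pecam1*, summed to 64.4 against 130 CPM. Its 10 epithelial markers summed to 24927 against 18724 CPM. Its 10 HSF1-inducible chaperone genes, several of which are also known to be raised by handling of tissue, summed to 737 against 1219 CPM, with *Hspa8* the most abundant. The 50 most abundant genes took 17.7% of its counts against 14.4% in replicate 2. All these markers had counts in both libraries, and the part of the cell makeup in the high immediate early values of this mouse was not tested.

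The untreated *Hsf1* null mice differed from each other as well, but in opposite directions for different members. *Fos*, *Fosb* and *Atf3*, a stress-induced factor of the ATF and CREB family, were higher in replicate 2, by 3.37-fold, 4.84-fold and 3.04-fold. *Jun* and *Zfp36* were higher in replicate 1, by 3.60-fold and 3.58-fold. A difference of over 2-fold between the 2 mice was thus found for 5 of the 10 genes, against 14.8% of all genes tested. WT mice of the same day were closer to each other, with 1 gene over 2-fold apart at day 0 (*Fosb*) and 0 at day 15, against 13.5% and 14.2% of all genes tested.

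**Figure D2:**
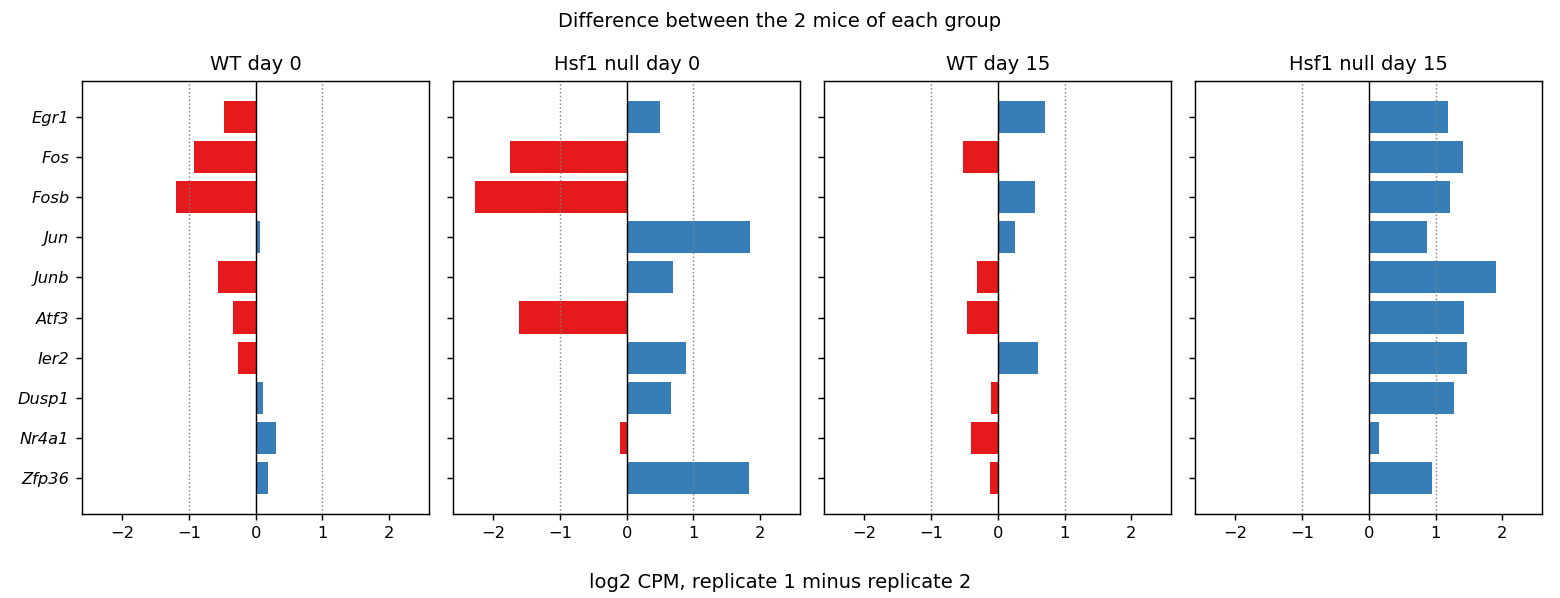
Difference in log2 CPM between replicate 1 and replicate 2 of each group for the 10 genes, on a linear axis, with dotted lines at a 2-fold difference in each direction. Bars to the right mark genes that were higher in replicate 1. In *Hsf1* null mice at day 15 all 10 bars point to the right, while in *Hsf1* null mice at day 0 *Fos*, *Fosb* and *Atf3* point the opposite way to *Jun* and *Zfp36*.

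The members did not vary as 1 block across the 8 mice. Over the 8 log2 values, *Fos* and *Atf3* had a Pearson correlation of 0.96 (Spearman 0.93), and 0.93 without the 2 mice farthest from the median of *Fos*. *Fosb* had correlations of 0.84 with *Fos* and 0.82 with *Atf3*. *Jun* went with *Ier2* at 0.75 and *Junb* with *Zfp36* at 0.76, although the Pearson correlation of *Junb* and *Zfp36* was -0.33 without the 2 farthest mice. *Egr1* had a correlation of 0.76 with *Junb* (0.58 without the 2 farthest mice) and of 0.64 with *Nr4a1* (-0.01 without them). With *Fos* it had a correlation of -0.01, and of 0.57 without the 2 farthest mice. These values describe the 8 mice, which shared 4 groups of treatment and genotype and differed in depth, and 45 pairs of genes were computed.

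The genotype comparison at day 0 asked which genes depend on HSF1 in the untreated colon. *Egr1*, a zinc finger factor that serum response factor induces, was at 46.9 and 65.1 CPM in the WT against 13.4 and 9.34 CPM in the *Hsf1* null mice. Both *Hsf1* null mice were far below both WT mice, and the log2 fold change, WT minus *Hsf1* null, was 2.25 (standard error 0.44), or 4.76-fold. It was the value that put these genes on the list and is no finding here.

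The other 9 genes did not share this pattern to the same degree. *Nr4a1*, an orphan nuclear receptor, was at 24.8 and 19.9 CPM in the WT against 13.5 and 14.4 CPM in the *Hsf1* null mice (log2 fold change 0.70, standard error 0.29). *Junb* was at 74.0 and 110 against 70.2 and 43.1 CPM, and *Dusp1*, a phosphatase that inactivates MAP kinases, at 64.2 and 59.6 against 54.0 and 34.1 CPM. For these 3 genes and *Egr1*, both WT mice were above both *Hsf1* null mice, though for *Junb* and *Dusp1* by little. Groups without overlap were thus found for 4 of 10 members, beside 37.1% of all genes tested, a share from which nothing is read because the list was made on this comparison.

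*Fos* at day 0 was at 32.9 and 62.3 CPM in the WT against 23.6 and 79.8 CPM in the *Hsf1* null mice, so that the WT values lay inside the range of the *Hsf1* null values. The same held for *Jun* (159 and 152 against 168 and 46.7 CPM), *Atf3* (29.6 and 37.3 against 18.9 and 57.5 CPM), *Ier2* (88.4 and 106 against 128 and 69.0 CPM) and *Zfp36* (205 and 180 against 364 and 102 CPM). For *Fosb* the groups overlapped as well, at 6.66 and 15.1 against 2.30 and 11.1 CPM. The log2 fold changes of these 6 genes were between -0.29 and 0.78. With edgeR no member passed the threshold used throughout, an adjusted p under 0.05 with an absolute log2 fold change above 1, and over all genes 0% did. *Hsf1*, the targeted gene, did not pass either at day 0 (log2 fold change 1.57, adjusted p 0.775 by edgeR). The 0% therefore does not show that the genotypes were alike. With edgeR 904 genes had an unadjusted p under 0.05, and DESeq2 called 18 genes, of which 1 was a member.

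The genotype comparison at day 15 used none of the mice of the comparison that put these genes on the list. It asked how the 2 genotypes differed after AOM-DSS. The list was nonetheless made with earlier results of these data known. Its standard errors and p-values came from the single fit to all 8 mice, so the spread of the day 0 mice enters them. In a fit of the day 15 mice alone 0 members passed the threshold. *Egr1* was at 68.0 and 41.7 CPM in the WT against 70.0 and 30.6 CPM in the *Hsf1* null mice. The WT values lay inside the *Hsf1* null range, and 1 *Hsf1* null mouse had the highest *Egr1* of all 8. The log2 fold change was 0.13 (standard error 0.41, 95% confidence interval -0.78 to 1.03), with an adjusted p of 0.883 by edgeR's quasi-likelihood test with Benjamini-Hochberg adjustment. At the upper end this interval allows a level 2.05-fold higher in WT mice, and at the lower end 1.71-fold higher in *Hsf1* null mice. The value changed sign without WT replicate 1 (-0.27) and without *Hsf1* null replicate 2 (-0.35) of that day.

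*Nr4a1* was the member with the smallest p at day 15. Its level was 36.9 and 48.6 CPM in the WT against 22.2 and 20.1 CPM in the *Hsf1* null mice. The genotypes did not overlap, and the 2 *Hsf1* null mice, which differed for most members, were alike for this gene. The log2 fold change was 1.02 (standard error 0.28, 95% confidence interval 0.39 to 1.64), and its adjusted p of 0.0744 by edgeR with Benjamini-Hochberg adjustment missed the threshold. DESeq2 gave an adjusted p of 0.0493, and over all alternatives the adjusted p was between 0.0493 and 0.358, with the log2 fold change between 0.81 and 1.20. *Nr4a1* lies on chromosome 15, as does *Hsf1*, at a distance of 24.8 Mb, and none of the other 9 members is on that chromosome. The part of this position in the *Nr4a1* values was not tested.

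*Dusp1* at day 15 was at 74.9 and 79.9 CPM in the WT against 63.0 and 25.9 CPM in the *Hsf1* null mice. Both WT mice were higher, at a log2 fold change of 0.80 (standard error 0.38) and an adjusted p of 0.241 by edgeR. Without *Hsf1* null replicate 1 the log2 fold change was 1.57, and without replicate 2 it was 0.30.

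*Zfp36* went the other way. Its level at day 15 was 276 and 298 CPM in the WT against 859 and 444 CPM in the *Hsf1* null mice. Both *Hsf1* null mice were above both WT mice, replicate 1 by far. The log2 fold change, WT minus *Hsf1* null, was -1.18 (standard error 0.51), with an unadjusted p of 0.0425 and an adjusted p of 0.198 by edgeR. Without *Hsf1* null replicate 1 it was -0.64.

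The 4 AP-1 subunits and *Atf3* had negative log2 fold changes at day 15, and none passed the threshold. *Jun* was at 98.3 and 81.9 CPM in the WT against 212 and 116 CPM in the *Hsf1* null mice, with no overlap, a log2 fold change of -0.87 (standard error 0.49) and an adjusted p of 0.316 by edgeR. *Fosb* was at 5.65 and 3.80 CPM in the WT against 13.8 and 5.88 CPM in the *Hsf1* null mice (log2 fold change -1.05, standard error 0.72, adjusted p 0.410 by edgeR). These 2 genes did not overlap between genotypes, but *Fosb* only narrowly so. Without *Hsf1* null replicate 1 of that day the log2 fold change was -0.37 for *Jun* and -0.32 for *Fosb*. Without replicate 2 the values were -1.24 and -1.54 in that order.

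*Fos* at day 15 was at 25.8 and 37.1 CPM in the WT against 70.9 and 26.7 CPM in the *Hsf1* null mice, and *Junb* at 107 and 132 against 286 and 76.6 CPM. *Atf3* was at 18.7 and 25.8 against 61.0 and 22.6 CPM, and *Ier2* at 112 and 73.2 against 212 and 76.8 CPM. For these 4 genes the *Hsf1* null mice lay apart from each other, with replicate 1 above and replicate 2 among or below the WT mice. Their log2 fold changes were between -0.91 and -0.60, with adjusted p-values by edgeR between 0.343 and 0.551. Without *Hsf1* null replicate 1 the log2 fold change was 0.22 for *Fos*, 0.63 for *Junb*, 0.26 for *Ier2* and -0.03 for *Atf3*, so that the sign turned for 3 of the 4.

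Over the 10 genes, the median log2 fold change at day 15 was -0.64, beside 0.03 over all genes tested, and 7 of the 10 values were negative. Without *Hsf1* null replicate 1 of that day the median was 0.24 and 4 of the 10 values were negative, so the direction of the median turned on that 1 library. No member passed the threshold with edgeR, beside 3.17% of all genes (455 of 14371, 180 higher and 275 lower in WT), and 2 members had an unadjusted p under 0.05, *Nr4a1* and *Zfp36*, as did 3332 of all 14371 genes. With DESeq2, 1 member passed, beside 1208 of all genes. Groups without overlap were found for 5 of 10 members, 2 higher and 3 lower in WT, beside 54.8% of all genes, so the share among the members was near that of genes at large. The count of 455 genes fell to 12 without either *Hsf1* null mouse of day 0, to 19 without WT replicate 2 and to 30 without *Hsf1* null replicate 1 of day 15, and was 873 without *Hsf1* null replicate 2 of that day and 6 in a fit of the day 15 mice alone. The p-values set each difference against a spread estimated from these few mice and moderated by that of the other genes. An exact permutation test of 2 against 2 mice cannot give a two-sided p below 0.333, and was therefore not used for single genes.

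**Figure D3:**
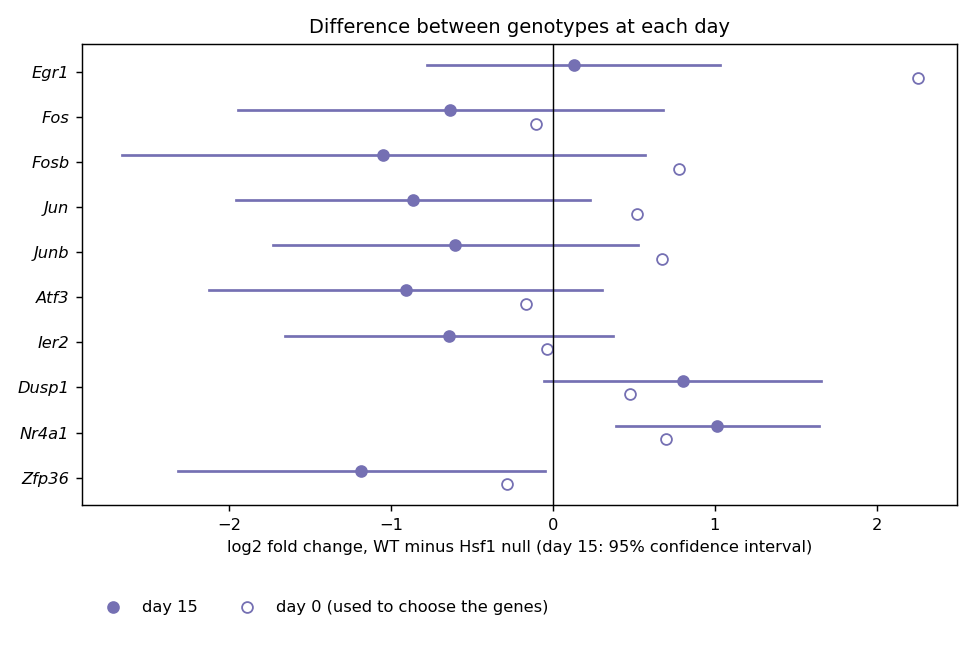
Log2 fold change between genotypes, WT minus *Hsf1* null, for the 10 genes, as filled points for day 15, with 95% confidence intervals from the edgeR fit as horizontal lines, and as open points with no interval for day 0, which was used to choose the genes. *Egr1* was at 2.25 at day 0 and 0.13 at day 15, and *Nr4a1* was above 0 on both days (0.70 and 1.02).

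The change with AOM-DSS was compared within each genotype. These comparisons and the difference between them contain the day 0 mice that the list was made on, so they are given side by side, with no p-value for the members and counts of calls only beside those over all genes. The mean *Egr1* level of WT mice was 56.0 CPM without and 54.9 CPM with AOM-DSS (log2 fold change -0.02, standard error 0.41), and that of *Hsf1* null mice was 11.4 and 50.3 CPM (2.11, standard error 0.44). All 4 values of the *Hsf1* null mice were apart by day, while those of the WT mice overlapped. The difference between the 2 responses, WT minus *Hsf1* null, was -2.12 on the log2 scale (standard error 0.60), in which the 4 day 0 values enter as well.

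*Nr4a1* was higher at day 15 in both genotypes, with log2 fold changes of 0.92 (standard error 0.28) in WT and 0.61 (standard error 0.29) in *Hsf1* null mice, and no overlap between days in either. *Zfp36* was likewise higher, by 0.58 (standard error 0.51) in WT and 1.47 (standard error 0.51) in *Hsf1* null mice. *Junb* had log2 fold changes of 0.39 and 1.66, and *Jun* of -0.79 and 0.59, in WT and *Hsf1* null mice in that order. *Fos* and *Atf3* were at -0.58 each in WT mice and at -0.05 and 0.16 in *Hsf1* null mice, with overlap between days in *Hsf1* null mice. *Dusp1* had 0.32 and -0.01, *Ier2* -0.07 and 0.54, and *Fosb* -1.14 and 0.68.

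In WT mice, 0 of 10 members passed the threshold for AOM-DSS, beside 7.74% of all genes, and 6 of 10 did not overlap between days, 3 higher (*Dusp1*, *Nr4a1*, *Zfp36*) and 3 lower (*Fosb*, *Jun*, *Atf3*), beside 62.5%. In WT mice edgeR gave 3965 genes with an unadjusted p under 0.05, and DESeq2 also called no member. In *Hsf1* null mice, 1 of 10 passed (*Egr1*), beside 11.8%, and 4 of 10 did not overlap (*Egr1*, *Junb*, *Nr4a1* and *Zfp36*, all higher at day 15), beside 61.3%. That 1 call was not made without *Hsf1* null replicate 2 of day 0 or without *Hsf1* null replicate 1 of day 15, and DESeq2 called 3 members (*Egr1*, *Junb* and *Zfp36*), beside 2203 of all genes. For the difference between the responses, 0 of 10 passed with edgeR, beside 0.00696% of all genes (1 gene), and 1239 genes had an unadjusted p under 0.05. DESeq2 called 120 genes there and no member. Nothing is read from these counts.

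A further 35 genes of the early response, listed for their function, were all tested at day 15, and 0 passed in either direction with edgeR, beside 3.17% of all genes. Their median log2 fold change between genotypes was 0.43. DESeq2 called 5 of them, *Nr4a2*, *Nfil3* and *Sgk1* higher and *Btg2* and *Plk3* lower in WT mice, beside 1208 of all 14371 genes. Without *Hsf1* null replicate 2 of that day edgeR called 5 of them, 1 higher and 4 lower, and without either WT mouse of day 0 it called 1 (*Nfil3*). *Nr4a2*, the closest relative of *Nr4a1* in the list, was at 5.92 and 8.55 CPM in the WT against 1.71 and 1.20 CPM in the *Hsf1* null mice of that day. Both WT mice were higher, with a log2 fold change of 2.31 and an adjusted p of 0.0739 by edgeR. *Nr4a3*, a further relative of *Nr4a1* in the list, did not share this pattern. Its values overlapped between genotypes at day 15, with a log2 fold change of 0.38 and an adjusted p of 0.729 by edgeR. *Egr2* and *Egr3*, relatives of *Egr1*, stayed under 6 CPM in all 8 mice, with log2 fold changes of 1.19 and 0.45 and adjusted p-values of 0.380 and 0.813 by edgeR. *Nr4a2*, *Egr2*, *Egr3* and the other genes of this paragraph were chosen after their values were seen.

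With AOM-DSS, 2 of the 35 genes rose and 3 fell in WT mice, beside 7.74% of all genes in either direction, and 2 rose and 2 fell in *Hsf1* null mice, beside 11.8%. *Klf2*, a factor of endothelium and lymphocytes, and *Gadd45b*, a stress-response gene, passed in both genotypes. In WT mice *Klf2* was at 49.6 and 27.4 CPM without and 91.2 and 106 CPM with AOM-DSS, and in *Hsf1* null mice at 53.0 and 32.3 CPM without and 117 and 100 CPM with it. All 4 treated mice were above all 4 untreated mice, with log2 fold changes of 1.33 in each genotype and adjusted p-values of 0.0385 and 0.0320 by edgeR. *Klf4*, *Klf6* and *Ctgf* fell in WT mice, and *Sgk1* and *Tiparp* fell in *Hsf1* null mice. With edgeR 0 of the 35 genes passed in WT mice without WT replicate 2 of day 15, and 0 passed in *Hsf1* null mice without *Hsf1* null replicate 2 of day 0. Leaving out any 1 of the 4 WT mice ended at least 3 of the 5 calls in WT mice, and in *Hsf1* null mice *Klf2* and *Gadd45b* did not pass when either mouse of day 15 was left out. In a fit of the WT mice alone only *Klf4* and *Klf6* passed, and after thinning to the smallest library *Klf2* did not pass in WT mice. These 7 genes were named because they passed, after their values were seen.

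Some cell markers passed with AOM-DSS as well, where 7.74% of all genes passed in WT mice and 11.8% in *Hsf1* null mice. Of the 10 smooth muscle genes, 7 fell in WT mice (median log2 fold change of the list -1.68) and 1 in *Hsf1* null mice (median -0.47). The 7 calls in WT mice were 0 without WT replicate 2 of either day and 4 in a fit of the WT mice alone, and the 1 call in *Hsf1* null mice was lost without replicate 2 of day 0 or without either mouse of day 15. Of the 10 epithelial markers, 2 fell in WT mice, and 2 fell and 1 rose in *Hsf1* null mice. Without 1 library, between 1 and 2 of them passed in WT mice and between 0 and 3 in *Hsf1* null mice. In *Hsf1* null mice 1 of 6 fibroblast markers fell and 1 of 6 enteric markers rose, and no gene at all passed there without replicate 2 of day 0. Of the 5 endothelial markers, 0 passed in either genotype. Their median log2 fold change was 1.16 in WT mice, with 5 of 5 above 0, and 0.07 in *Hsf1* null mice, with 3 of 5 above 0. The part of all these markers in the calls of early response genes was not tested.

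Of 15 further MAP kinase phosphatases and feedback inhibitors such as *Dusp6*, *Spry2* and *Errfi1*, 0 passed between genotypes at day 15 with edgeR or DESeq2. Without *Hsf1* null replicate 2 of day 15 edgeR called 1 of them (*Dusp7*, higher in WT mice). Their median log2 fold change was 0.43, and 0 passed with AOM-DSS in either genotype with edgeR. Of 22 upstream factors and kinases, 0 passed between genotypes at day 15 with edgeR or DESeq2, with a median of 0.26. With AOM-DSS, 1 of the 22 passed in WT mice, beside 7.74% of all genes, and 2 passed in *Hsf1* null mice, beside 11.8%. The kinase gene *Rps6ka3* fell in both genotypes, with log2 fold changes of -1.15 (WT) and -1.60 (*Hsf1* null). *Atf2*, a relative of *Atf3*, fell in *Hsf1* null mice (-1.43). Leaving out any 1 of the 4 WT mice ended the call of *Rps6ka3* in WT mice (0 of 22). In *Hsf1* null mice 0 of 22 passed without replicate 2 of day 0, and *Rps6ka3* did not pass without replicate 1 of day 15. Both genes were named because they passed. *Srf*, which codes for serum response factor, was at day 0 at 61.8 and 91.7 CPM (WT) against 52.6 and 32.0 CPM (*Hsf1* null), and at day 15 at 82.3 and 82.7 against 75.7 and 55.6 CPM. Its 2 WT mice were above its 2 *Hsf1* null mice on each day, and the day 15 log2 fold change was 0.33 with an adjusted p of 0.549 by edgeR.

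Between genotypes at day 15, where 3.17% of all genes passed with edgeR and DESeq2 called 1208 of 14371, some marker genes did pass. Of the 10 HSF1-inducible chaperone genes, *Dnajb1*, an HSP40 cochaperone, was higher in WT mice (78.6 and 133 against 37.1 and 31.8 CPM, log2 fold change 1.62, adjusted p 0.0277 by edgeR). Of 5 endothelial markers, *Cdh5* was higher in WT mice (41.3 and 40.1 against 3.88 and 11.9 CPM, log2 fold change 2.36, adjusted p 0.0316 by edgeR). Of 10 epithelial markers, the water channel *Aqp8* was lower in WT mice (18.6 and 33.4 against 642 and 149 CPM, log2 fold change -3.93, adjusted p 0.0210 by edgeR). Among the smooth muscle, fibroblast and enteric nervous system lists, 0 genes passed with edgeR, with median log2 fold changes of -0.81, 1.09 and -0.44 in this order, and DESeq2 called 2 genes each of the smooth muscle and fibroblast lists, 3 each of the epithelial and endothelial lists and 5 of the chaperone list. The calls of *Dnajb1*, *Cdh5* and *Aqp8* were all lost (0 in each of the 3 lists) in a fit of the day 15 mice alone, without either *Hsf1* null mouse of day 0, and without WT replicate 2 or *Hsf1* null replicate 1 of day 15. *Cdh5* and *Aqp8* also did not pass without WT replicate 1 of day 15, nor *Dnajb1* without *Hsf1* null replicate 2, where *Hspa8* was the 1 chaperone gene called. Only *Alas2* of the red cell list was in the counts used here, at 3.74 CPM or less. The part of these differences in the values of the immediate early genes was not tested.

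By its values over the 8 mice, the gene most like the mean of the 10 members was *Zc3h4*, with a Pearson correlation of log2 CPM of 0.97 (Spearman 0.86), and 0.91 without the 2 mice farthest from the median. *Agpat1*, *Zfp865*, *Il17rc*, *Bsg*, *Yipf2*, *Tsc22d4*, *Fbxl19*, *Ppt2* and *Tpcn2* followed, at 0.95 to 0.92. Without the same 2 mice the correlations of these followers were lower, between 0.68 (*Bsg*) and 0.92 (*Zfp865*). Over all 8 mice, *Zc3h4* and these followers were the highest of 14001 genes with a mean of at least 1 CPM. Among the genes most like *Egr1* alone were *Mov10*, *Dpysl5*, *Trappc9* and *Lrp10*, with correlations of 0.96 to 0.94. Without the 2 *Hsf1* null mice of day 0, the correlation with *Egr1* was 0.91 for *Lrp10* and 0.68 for *Mov10*. None of these 14 genes is in the lists of early response genes.

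Promoters were compared because *Fos*, *Fosb* and *Atf3* varied together over the mice. RefSeq promoters on GRCm38.p6, from 250 bases before to 50 bases after the RefSeq start used there, were at hand for 8 of the 10 members. The pentamer TGACG, the core of the sites that CREB and ATF proteins are known to bind, was looked for on both strands. It was in the promoters of 6 of these 8 genes, *Fos*, *Fosb*, *Junb*, *Atf3*, *Dusp1* and *Nr4a1*, and in 20.8% of all 32851 promoters (17.8% when only the 250 bases before the start were searched). The full palindrome TGACGTCA, which holds TGACG on each strand, was in the *Dusp1* promoter and in 1.79% of all. The AP-1 motif TGANTCA was in 0 of the 8 and in 7.81% of all, and GAANNTTC, a pair of heat shock element units, in *Jun* and in 7.86% of all. The EGR motif GCGNGGGCG was in *Fosb*, *Nr4a1* and *Zfp36* and in 5.55% of all, and TATAA in *Fos* and *Junb* and in 24.9% of all. The *Junb* match to TATAA lay after the start, and only *Fos* had TATAA in the 250 bases before it. A CArG box, the motif of serum response factor, was in *Zfp36* and in 1.63% of all. Sites farther than 250 bases before the start were not searched for any motif. A match describes the letters and is no evidence of binding.

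The stretches with TGACG are shown for *Fos*, *Fosb* and *Atf3*, which varied together, and for *Dusp1* and *Nr4a1*, which had the most matches. Each is given 5′ to 3′ on the strand of its gene, from 10 bases before the first match to 10 bases after the last or to that start, with matches to TGACG on either strand in capitals (CGTCA is the match on the other strand).
Fos: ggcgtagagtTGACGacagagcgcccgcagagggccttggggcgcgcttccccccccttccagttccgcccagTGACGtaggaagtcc
Fosb: gagttgcgggTGACGcaagcgcggg
Atf3: aatagcattaCGTCAgc
Dusp1: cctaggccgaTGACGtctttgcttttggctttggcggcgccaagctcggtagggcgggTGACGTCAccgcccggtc
Nr4a1: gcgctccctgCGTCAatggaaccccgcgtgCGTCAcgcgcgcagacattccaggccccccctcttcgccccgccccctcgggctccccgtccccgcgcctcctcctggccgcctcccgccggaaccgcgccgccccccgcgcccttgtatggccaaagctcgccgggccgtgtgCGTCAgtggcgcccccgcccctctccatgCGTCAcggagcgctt
The *Fos* stretch is at chr12:85473751-85473838 on the plus strand and the *Nr4a1* stretch at chr15:101266603-101266820 on the plus strand. The other 3 are on the minus strand, *Fosb* at chr7:19310091-19310115, *Atf3* at chr1:191183334-191183350 and *Dusp1* at chr17:26508598-26508673. The coordinates are those of GRCm38.p6, and the starts are those of the RefSeq promoters. In GENCODE M21, *Nr4a1*, *Dusp1* and *Atf3* also have transcripts that start farther upstream, so that these 3 stretches lie within the gene there. *Nr4a1* had 4 matches, *Dusp1* 3, *Fos* 2 and the others 1 each.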

How the data were processed

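Reads were mapped to mm10 by the authors, who used STAR and deposited raw counts for 15859 genes. The program that counted the reads, its use of strand and the gene annotation are not given in the sources used here, so reads of *Jun*, *Junb*, *Dusp1* and *Zfp36* cannot be told apart from those of genes on the other strand where their exons overlap. The deposited normalized signal is those counts divided by a DESeq2 size factor per sample, made by the authors, and it was used only to check the size factors.

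Counts were analysed in R 4.3.3 with edgeR 4.0.16 (TMM normalization, quasi-likelihood test, a single fit of 4 group means to the 8 samples), with Benjamini-Hochberg adjustment over all genes tested. Testing required a mean normalized count above 5. A gene passed if its absolute log2 fold change was above 1 and its adjusted p under 0.05. The fits were first tried on simulated counts with known changes. Gene positions and exon lengths come from GENCODE M21 on GRCm38, and promoter sequences from RefSeq on GRCm38.p6. Promoters of *Egr1* and *Ier2* were not analysed here.

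The members and gene lists were chosen with earlier results of these data known. Because the members were chosen on the genotype comparison of untreated mice, p-values of members are given only for the genotype comparison at day 15. In the other comparisons, members past the threshold are counted beside all genes, and nothing is read from those counts. Genes outside the members were named where they passed the threshold, where DESeq2 called them, as relatives or regulators of a member, or as the most abundant marker of a list or among the most similar genes. Results that need 2 further genes are not reported here.

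Alternatives were DESeq2 1.42.0 as the test, edgeR with the size factors of DESeq2, filterByExpr or no filter in place of the mean count, the adjusted p alone as threshold, replicate numbers as a block, a fit of only the groups compared, thinning of all libraries to the depth of the smallest, and leaving out 1 library at a time.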

Additional observations from a re-analysis of the deposited data

How the results depend on the processing

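For the genotype comparison at day 15, 160 log2 fold changes of the 10 genes were computed over 16 alternatives, of which 154 kept their direction and side of the threshold, 1 became stronger (*Nr4a1* with DESeq2) and 5 reversed. All 5 reversals came when a day 15 library was left out. With the adjusted p alone as threshold the fit was the same, so its log2 fold changes could not move. Libraries of day 0 bear on this comparison only through the filter, normalization and spread, and leaving them out moved its values little. The 154 thus include values with little or no room to change. Leaving out each library in turn gave between -0.35 and 0.83 for *Egr1*, -1.17 and 0.22 for *Fos*, -1.26 and 0.63 for *Junb*, and -1.20 and 0.26 for *Ier2*. The highest value of each of these came without *Hsf1* null replicate 1 of day 15 and the lowest without replicate 2, and *Egr1* was also negative without WT replicate 1 of day 15 (-0.27). Where 1 library of a group was left, its spread came from the other groups.

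The count of all genes past the threshold moved from 455 between genotypes at day 15 to 1208 with DESeq2, 6 with only the groups compared, and 12 to 873 with 1 library left out. Between genotypes at day 0 it moved from 0 to 18 with DESeq2 and 0 to 17 with 1 library left out. For AOM-DSS in WT mice it moved from 1112 to 1737 with DESeq2 and 92 to 1336 with 1 library left out, and in *Hsf1* null mice from 1692 to between 0 and 1891 with 1 library left out. For the difference between the responses it moved from 1 to 120 with DESeq2, 2 without a filter, 3 after thinning, and 0 to 50 with 1 library left out.

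Of the 10 genes, DESeq2 called 1 between genotypes at day 15 (*Nr4a1*), 1 at day 0 and 3 for AOM-DSS in *Hsf1* null mice (*Egr1*, *Junb* and *Zfp36*), where edgeR called 0, 0 and 1, and nothing is read from the counts that include day 0 mice. That last count was 2 after thinning and between 0 and 3 with 1 library left out.

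With the replicate block, which pairs mice by number although same-numbered mice are different animals, 343 genes passed at day 15, 868 for AOM-DSS in WT mice, 1505 in *Hsf1* null mice and 2 for the difference between the responses. The replicate block changed no call of the 10 genes. Of the 5 further early response genes called for AOM-DSS in WT mice it left 3, without *Ctgf* and *Gadd45b*, and at day 15 it added 1 fibroblast marker (*Dcn*).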
